A study of Cricetulus griseus with 16 samples.

Results

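Cells kept for 1 h at 42.5 °C, a moderate heat stress, were compared with cells kept at 37 °C. They were CHO cells, an established Chinese hamster ovary line that carries the label ATCC CCL-61. Of the 16 RNA-seq libraries of the series, 7 entered the comparison, namely 42.5 °C replicates A, B, C and D and 37 °C replicates A, B and C. They were selected by their labels, and no measured value was used. The other libraries come from cells at 40 °C, heated for either 1 h or 6 h, and from 37 °C replicate D. That replicate was left out of the main comparison, a choice the study also made, and entered only as an alternative. All cultures, the controls included, were of this single line and were seeded on plates before heating. No recovery period is given for the RNA samples in the sources used here. The replicates are biological repeats per the labels, and whether they came from separate days is not given.

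The libraries hold reads counted on 20824 genes, and the totals were between 10504192 and 13997367 counts in the 7 libraries used. A floor of 3 counts in a library corresponds to 0.214 to 0.286 CPM, counts relative to the library total before any scaling, and covers counting error only. The other CPM values are scaled by TMM. For 10430 genes with a mean of at least 10 counts, the log2 CPM of 37 °C replicates A, B and C correlated across genes with Pearson's r between 0.9962 and 0.9969, and replicate D correlated with them between 0.9736 and 0.9761. Of the markers examined, Vim, an intermediate filament of mesenchymal cells, was at 2170 to 2380 CPM and Fn1, which encodes fibronectin, at 343 to 435 CPM. None of the 8 blood and endothelial markers found had more than 2 counts in a library. Of the ovarian markers, Cyp19a1, Fshr and Foxl2 had 0 counts and Amh was at 1.90 to 4.35 CPM, so of the granulosa markers the cells had Amh alone. The epithelial marker Cdh1 was at 1.82 to 4.14 CPM and Epcam had 0 counts. Other mesenchymal or fibroblast markers were low. Col1a1 and Col1a2, the fibroblast collagens, had no more than 2 counts in a library, Thy1 had 0 counts and Cdh2 was at 0.181 to 0.775 CPM.

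When proteins unfold in the heat, heat shock factor 1 (HSF1) is released from its chaperone partners, binds heat shock elements and drives transcription of chaperone genes. The HSP70 and HSP110 families, their J-domain (HSP40) partners, HSP90 and the small heat shock proteins hold unfolded proteins and help them to refold. Heat also activates MAP kinases and their immediate early genes, whose mRNAs need no new protein to appear, and it slows the transcription and splicing of many other genes.

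A gene was called when edgeR's quasi-likelihood test gave a Benjamini-Hochberg adjusted p under 0.05 and it was 1.5-fold or more higher or lower. Of 10470 genes tested, 786 were called (7.51%), with 296 called higher (2.83%) and 490 called lower (4.68%). The heated and control libraries did not overlap for 762 of the 786 genes (96.9%), against 46.0% of all tested genes. The rises were larger than the falls. Among called genes, 42 rose at least 4-fold and 7 fell at least 4-fold, whereas 128 rose and 128 fell at least 2-fold. The median log2 fold change was -0.0017 over all tested genes. When the libraries were scaled by their totals alone that median moved to -0.08, and 230 genes were then called higher and 647 lower, which lowers the share of rises among the calls from 37.7% to 26.2%.

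The balance of rises and falls differed between levels of expression. Among the 2434 genes with a mean of at least 100 CPM over the 7 libraries, 44 were called higher and 12 lower. Among the 2423 genes between 10 and 30 CPM, 60 were called higher and 166 lower, and among the 1241 genes between 3 and 10 CPM the counts were 60 and 136. The 3615 genes between 30 and 100 CPM gave 51 and 80, and the 757 genes below 3 CPM gave 81 and 96. Rises thus outnumbered falls among the most abundant genes and in no other range.

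**Figure D1:**
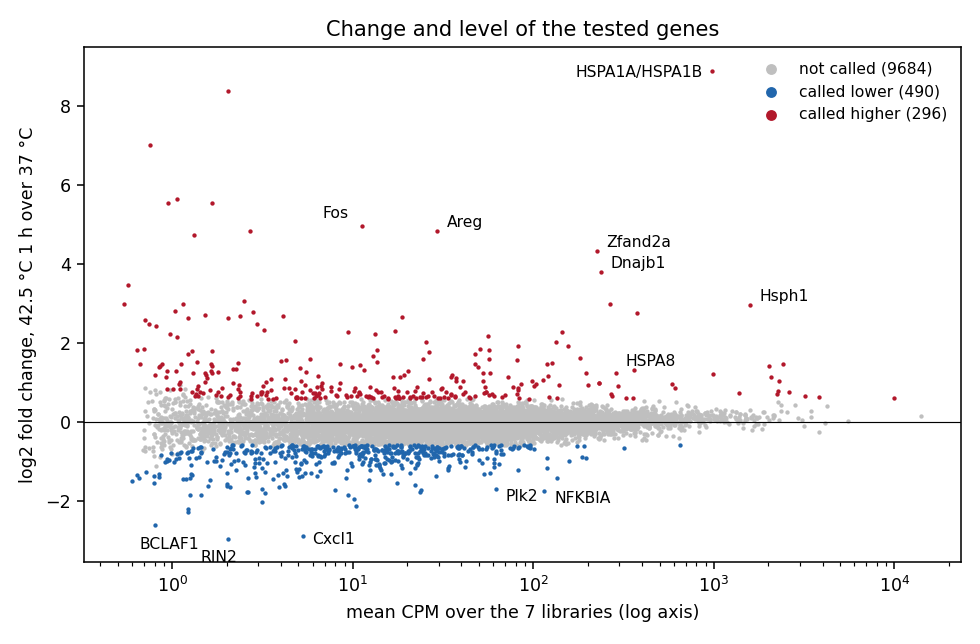
Each point is 1 of the tested genes, with its mean CPM over the 7 libraries on a log axis and its log2 fold change at 42.5 °C for 1 h over 37 °C on the y axis. Red points are the 296 genes called higher and blue points the 490 called lower, and the largest rises exceed any fall in size. Points of genes with 0 to 3 control counts have fitted values that depend on the prior count.

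Of 89 tested members of the 5 chaperone and heat shock factor lists, 17 were called higher (19.1%) and 1 lower (1.12%). The shares over all tested genes were 2.83% and 4.68%, and the lists had a median log2 fold change of 0.13. Of 122 listed symbols, 105 were found by name. HSPA1A/HSPA1B and HSPA8 joined these lists only through the study's fold changes of significant genes. Unnamed members that did not change could not join, so the share of rises leans upward. The largest fitted change of any gene belonged to a gene listed as ENSCGRG00001001109, which is paired with the name HSPA1A/HSPA1B, the stress-inducible HSP70. The near-identical copies of this gene cannot be separated here. It was at 4.00, 4.01 and 2.59 CPM in 37 °C replicates A, B and C, and at 1623, 1872, 1538 and 1756 CPM in 42.5 °C replicates A to D. Its heated libraries were thus alike, and none came near a control. On the log2 scale it rose by 8.88 (SE 0.11, adjusted p = 3.71e-18).

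Among the partners of HSP70, Hsph1, the HSP110 nucleotide exchange factor, was at 328, 323 and 320 CPM at 37 °C and at 1837, 2771, 1727 and 3768 CPM at 42.5 °C, a 7.77-fold rise (log2 2.96, SE 0.20, adjusted p = 4.19e-08). Bag3, an exchange factor that directs clients to autophagy, was at 80.8, 94.0 and 88.3 CPM at 37 °C and at 468, 633, 449 and 816 CPM in the heated libraries, a 6.72-fold rise (adjusted p = 1.01e-08). HSPA8, the constitutive HSP70, rose 2.34-fold (adjusted p = 1.27e-06). It is listed by identifier and was paired with its name through 1 fold change. Of the 15 tested members of this list 4 were called higher (26.7%, against 2.83% of all tested genes) and 0 lower. Hspa4, another HSP110 protein, had a log2 fold change of 0.43 (adjusted p = 0.000634), below the fold threshold, and Hspa14 and Bag2 were both at -0.04.

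Among 32 tested HSP40 genes, 3 were called higher (9.38%) and 1 lower (3.12%), against 2.83% and 4.68% of all tested genes. Their median log2 fold change was 0.04. Dnajb1, the J-protein that works with inducible HSP70, was at 28.8, 26.3 and 30.2 CPM at 37 °C and at 343, 465, 242 and 526 CPM at 42.5 °C. Every heated library lay above the controls, at a fold change of 13.8 (log2 3.79, SE 0.21, adjusted p = 4.75e-09). Dnaja1 rose 1.92-fold (adjusted p = 4.43e-06) and Dnajb4 1.84-fold (adjusted p = 7.87e-05). Dnajc27 fell, from 18.7, 19.4 and 20.5 CPM to 11.8, 12.0, 12.4 and 9.70 CPM (1.72-fold lower, adjusted p = 1.58e-05).

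Of the 19 tested members of the HSP90 and chaperonin list 3 were called higher (15.8%, against 2.83% of all tested genes) and 0 lower. The median log2 fold change was 0.26, and 13 were higher by adjusted p alone. The called genes were Cacybp (log2 0.71, adjusted p = 5.77e-06), HSPD1, which encodes the mitochondrial HSP60 (log2 0.70, adjusted p = 2.3e-05), and Chordc1 (log2 0.61). Hsp90ab1 (log2 0.40), Stip1 (0.51), which links HSP70 to HSP90, and Ptges3 (0.44), the p23 co-chaperone, were not called. Chordc1 lost its call with all 4 controls (log2 0.58) and without 42.5 °C replicate D (0.52), among other alternatives.

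The list of small heat shock proteins and the collagen chaperone had 4 of 6 tested members called higher (66.7%) and 0 lower. The share called higher was 2.83% over all tested genes, and the list had a median log2 fold change of 0.98. Of its small heat shock proteins proper, Hspb1 and Hspb8 were called, and Hspb6 (log2 0.49) and Hspb11 (0.27) were not. Hspb1, which encodes Hsp25/27, was at 55.4, 49.5 and 56.7 CPM at 37 °C and at 357, 525, 264 and 555 CPM at 42.5 °C (7.87-fold, adjusted p = 2.95e-08). Hspb8, the BAG3 partner, rose 2.5-fold (adjusted p = 7.84e-07), and Serpinh1, the collagen chaperone HSP47, rose 2.33-fold (adjusted p = 5.84e-06). Mkks, a chaperonin-like protein that the list also holds, rose 1.68-fold, a call lost with all 4 controls (log2 0.52).

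Among other HSF1 targets, Zfand2a, which encodes the proteasome-associated AIRAP, was at 19.7, 18.6 and 18.5 CPM at 37 °C and at 281, 410, 262 and 565 CPM at 42.5 °C. On the log2 scale this was a rise of 4.32 (SE 0.24, adjusted p = 4.47e-09). Rgs2, a regulator of G protein signaling, rose 2.92-fold (adjusted p = 8.43e-05), and Dedd2, a death effector domain protein, 1.82-fold. Hsf1 itself was at a log2 fold change of -0.14 (adjusted p = 0.021) and Hsf2 at 0.24 (adjusted p = 0.0172), both short of the fold threshold. Hmox1, the heme oxygenase that heat can induce, did not pass the test (log2 0.13, adjusted p = 0.31).

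The heated libraries did not agree on the size of this response. For 16 of the 17 risen chaperone-list genes the highest of the 4 heated libraries was replicate D, and for 14 of the 17 the lowest was replicate C. Their median log2 distance from the 37 °C mean was 1.07, 1.34, 0.84 and 1.66 in replicates A, B, C and D. The median ratio of the highest to the lowest heated library was 1.64 in these genes and 1.15 over all tested genes. HSPA1A/HSPA1B was the exception, with its highest library being replicate B and its lowest replicate C. Over all 296 genes called higher, replicate D was highest for 178 (60.1%), against 29.4% of all tested genes, and it was lowest for 190 of the 490 genes called lower. The cause of the difference between replicates was not tested.

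**Figure D2:**
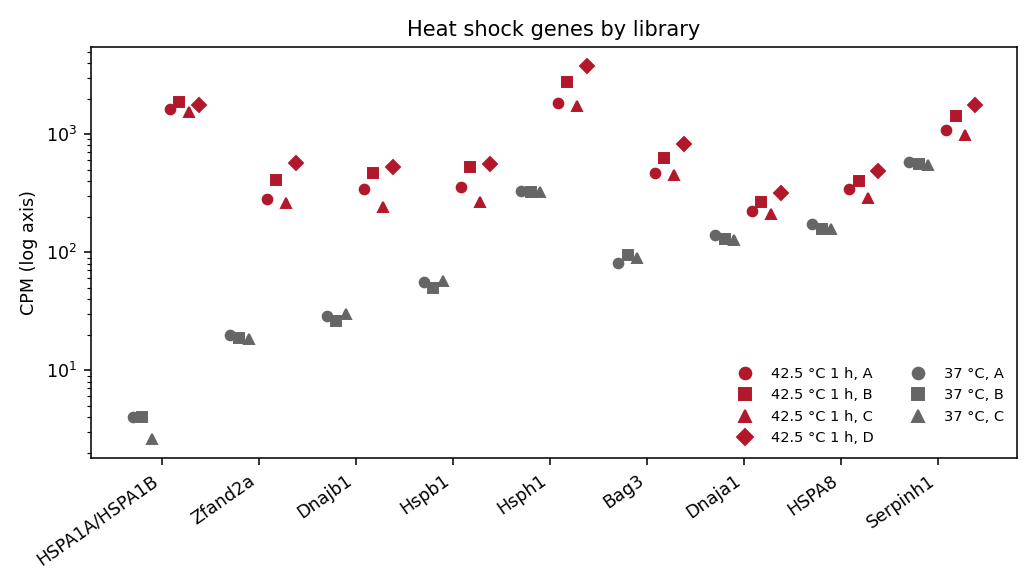
CPM on a log axis for heat shock genes, with each 37 °C replicate in gray and each 42.5 °C replicate in red, and with a marker shape for each letter. HSPA1A/HSPA1B lies between 1538 and 1872 CPM in all heated libraries, while Hsph1 spans 1727 to 3768 CPM and replicate D is the highest for the other genes shown.

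The shares of counts moved in the same direction. The chaperone lists held 3.09% ± 0.345 (SD, n = 4) of all counts after heating. In the controls they held 2.13% ± 0.0497 (SD, n = 3), with no overlap between the groups. A two-sided exact permutation test gave p = 0.0571 for n = 3 against n = 4, which is the smallest p this design allows, so no share could pass 0.05.

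Immediate early genes were examined next. Of 19 tested AP-1 and EGR factors 8 were called higher (42.1%) and 1 lower (5.26%), against 2.83% and 4.68% of all tested genes. Fos, a subunit of AP-1, was at 0.561, 0.802 and 0.431 CPM at 37 °C, which is 8, 11 and 5 counts, and at 18.5, 21.5, 15.7 and 20.9 CPM at 42.5 °C. Its fold change was 31.0 (log2 4.95, SE 0.21, adjusted p = 1.91e-10). Egr1, a zinc finger factor downstream of ERK, was at 51.3, 41.3 and 51.4 CPM at 37 °C and at 243, 191, 188 and 165 CPM in the heated libraries, a 4.08-fold rise (adjusted p = 3e-09). Egr2 rose 4.17-fold, Junb 2.80-fold (adjusted p = 3.49e-11), Atf3 2.77-fold, Jun 2.24-fold, and Fosl2 2.19-fold. Fosb also passed (log2 1.46, adjusted p = 0.00934), at no more than 1.26 CPM. Fosl1 (log2 -0.24) and Jund (0.12) were not called, and Batf2 was the gene called lower (log2 -0.76). Unlike the chaperones, the 8 risen factors had no common highest library, since replicate D was highest for 3 of them and replicates A and B for 2 each.

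The other immediate early genes were split, with 9 of 40 called higher (22.5%) and 6 lower (15%), against 2.83% and 4.68% of all tested genes. Csrnp1, a nuclear factor induced by AXIN1, rose 4.53-fold (adjusted p = 3.78e-10), Hes1, a Notch target, 3.39-fold and Sgk1, a kinase of the AGC family, 2.95-fold (adjusted p = 4.62e-07). Id1 rose 2.77-fold and Nr4a1 2.25-fold. In the other direction, Plk2, a polo-like kinase, was at 107, 100 and 100.3 CPM at 37 °C and at 36.5, 26.9, 38.4 and 25.5 CPM at 42.5 °C, which is 3.24-fold lower (adjusted p = 8.24e-09). Rhob was 2.32-fold lower, Ier2 2.27-fold lower (adjusted p = 1.61e-05) and Gadd45b 2.06-fold lower. Myc had a log2 fold change of -0.39 (adjusted p = 2.7e-05), below the fold threshold. Immediate early genes therefore did not move as 1 block.

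Of 17 tested MAP kinase phosphatases, EGF receptor ligands and ERK feedback genes 7 were called higher (41.2%) and 0 lower. The other 10 were not called, and the median was 0.21. The share called higher was 2.83% over all tested genes. Areg, which encodes the EGF receptor ligand amphiregulin, was at 2.39, 1.31 and 1.47 CPM at 37 °C and at 30.9, 56.7, 29.7 and 81.7 CPM at 42.5 °C (28.5-fold, log2 4.83, SE 0.42, adjusted p = 5.08e-07). Hbegf, a second ligand of that receptor, rose 3.29-fold (adjusted p = 2.37e-07). Dusp1, the phosphatase that inactivates p38, JNK and ERK, was at 48.0, 45.2 and 40.3 CPM against 169, 244, 183 and 279 CPM (4.88-fold, adjusted p = 1.49e-08). Dusp8 and Dusp16, both phosphatases of JNK and p38, rose 2.27-fold and 1.90-fold. Errfi1, an inhibitor of the EGF receptor, rose 1.54-fold. Dusp6, which is specific for ERK, had a log2 fold change of -0.49 (adjusted p = 0.0262) and its libraries overlapped. Dusp4 (log2 0.21), Dusp5 (0.1), Dusp7 (-0.32), Spry1 (-0.08), Spry2 (0.1), Spred1 (0.19) and Spred2 (-0.09) were not called either, whereas Spred3 (0.99) was called higher.

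The NF-kB list gave calls in both directions, 5 higher (11.4%) and 9 lower (20.5%) of 44 tested, with a median of -0.06. Over all tested genes these shares were 2.83% and 4.68%. NF-kB dimers are held in the cytoplasm by IkB proteins until receptors signal for their destruction. NFKBIA, which encodes the inhibitor IkBα and is itself a target of NF-kB, is listed by identifier and was paired with its name through 1 fold change. It was at 204, 177 and 196 CPM at 37 °C and at 66.1, 49.6, 52.9 and 61.8 CPM at 42.5 °C, which is 3.34-fold lower (log2 -1.74, SE 0.08, adjusted p = 3.01e-10). The receptors and adaptors Tlr6 (4.81-fold lower), Ticam1 (3.04-fold lower), Tnfrsf1b (2.11-fold lower) and Tnfrsf1a (1.64-fold lower) fell, as did the kinase Map3k14 (1.97-fold lower). Other members rose. Nfkbiz, a nuclear IkB protein, was at 6.25, 5.54 and 4.74 CPM against 14.1, 21.2, 14.3 and 28.8 CPM (3.55-fold, adjusted p = 1.56e-05). Tnfaip3, the ubiquitin editor A20, rose 2.09-fold (adjusted p = 4.77e-05), Traf6, a ubiquitin ligase that carries receptor signals, 2.06-fold, Zc3h12a, an RNase that degrades cytokine mRNAs, 1.85-fold and Peli1 1.70-fold. The subunits themselves, Rela (log2 -0.07), Relb (-0.03), Rel (0.11), Nfkb1 (0.07) and Nfkb2 (-0.09), were not called.

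Cytokine genes were also divided, 6 of 29 called higher (20.7%) and 5 lower (17.2%), against 2.83% and 4.68% of all tested genes. Cxcl1, a neutrophil chemokine, was at 11.2, 9.56 and 10.7 CPM at 37 °C and at 1.26, 1.58, 0.872 and 1.89 CPM at 42.5 °C, which is 7.34-fold lower (log2 -2.88, SE 0.18, adjusted p = 1.38e-08). Il11, a cytokine of the IL-6 family, rose 4.83-fold (adjusted p = 6.55e-06) and Cntf, another member, 4.41-fold from at most 0.431 CPM. Il6 rose 1.84-fold (adjusted p = 0.000252), Socs3, the feedback inhibitor of its receptor, 2.14-fold, and Ptgs2, which encodes cyclooxygenase-2, 2.13-fold. Ccr7 was 1.87-fold lower and Tnfsf4 2.31-fold lower. Other chemokines, namely Ccl2 (log2 -0.04), Ccl7 (-0.12), Cxcl10 (-0.20), Cxcl12 (-0.30) and Cxcl16 (0.28), were not called, nor were the IL-6 family members Lif (-0.10) and Clcf1 (0.15).

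The CLK kinases phosphorylate SR proteins and release introns that are held back in the nucleus. Of 32 genes on the list of CLK kinases and transcripts with detained introns 5 were called higher (15.6%) and 7 lower (21.9%). Over all tested genes these shares were 2.83% and 4.68%. Clk1 was at 85.4, 76.4 and 85.2 CPM at 37 °C and at 221, 281, 200.3 and 313 CPM at 42.5 °C (3.07-fold, adjusted p = 6.45e-08), Rsrp1 rose 1.62-fold and Ccnl1 1.55-fold. Clk2 was 1.53-fold lower (adjusted p = 4.15e-05) and Clk4 was not called (log2 0.17, adjusted p = 0.244). Ccnl2, the paralog of Ccnl1, was 1.57-fold lower (adjusted p = 4.49e-05), and Sugp2 was 2.02-fold lower. The call of Clk2 was lost without 37 °C replicate A (log2 -0.57) and without 42.5 °C replicate C (-0.56). Without 37 °C replicate B, 2 rises were called instead of 5, and library totals alone also gave 2. Without 42.5 °C replicate C, 4 falls were called instead of 7.

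On the list of SR proteins and spliceosome parts, 1 of 32 was called higher (3.12%) and 2 lower (6.25%), near the shares of all tested genes, and Srsf1 was level (log2 0.01, adjusted p = 0.915). Srsf5 was 1.53-fold lower and Snrnp35, a protein of the minor spliceosome, 1.95-fold lower. Srsf5 lost its call without 37 °C replicate B (log2 -0.57) and without 42.5 °C replicate D (-0.55).

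Among 29 tested genes of transcription elongation 2 were called higher (6.9%) and 7 lower (24.1%), against 2.83% and 4.68% of all tested genes. Their median was -0.13. Hexim1, the inhibitor of the elongation kinase P-TEFb, was at 48.6, 47.7 and 57.7 CPM against 30.9, 29.0, 31.4 and 27.4 CPM (1.74-fold lower, adjusted p = 9.97e-07). Ell, an elongation factor, was 2.76-fold lower (adjusted p = 3.97e-07), Taf1d, a subunit of the RNA polymerase I factor SL1, 3.30-fold lower (adjusted p = 9.34e-08), and Supt4a, a part of DSIF, 1.77-fold lower. Crebbp, a histone acetyltransferase and coactivator, rose 1.78-fold (adjusted p = 1.71e-06) and Sp1 1.64-fold. The large polymerase II subunit Polr2a (log2 -0.15, adjusted p = 0.00591) was not called.

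**Figure D3:**
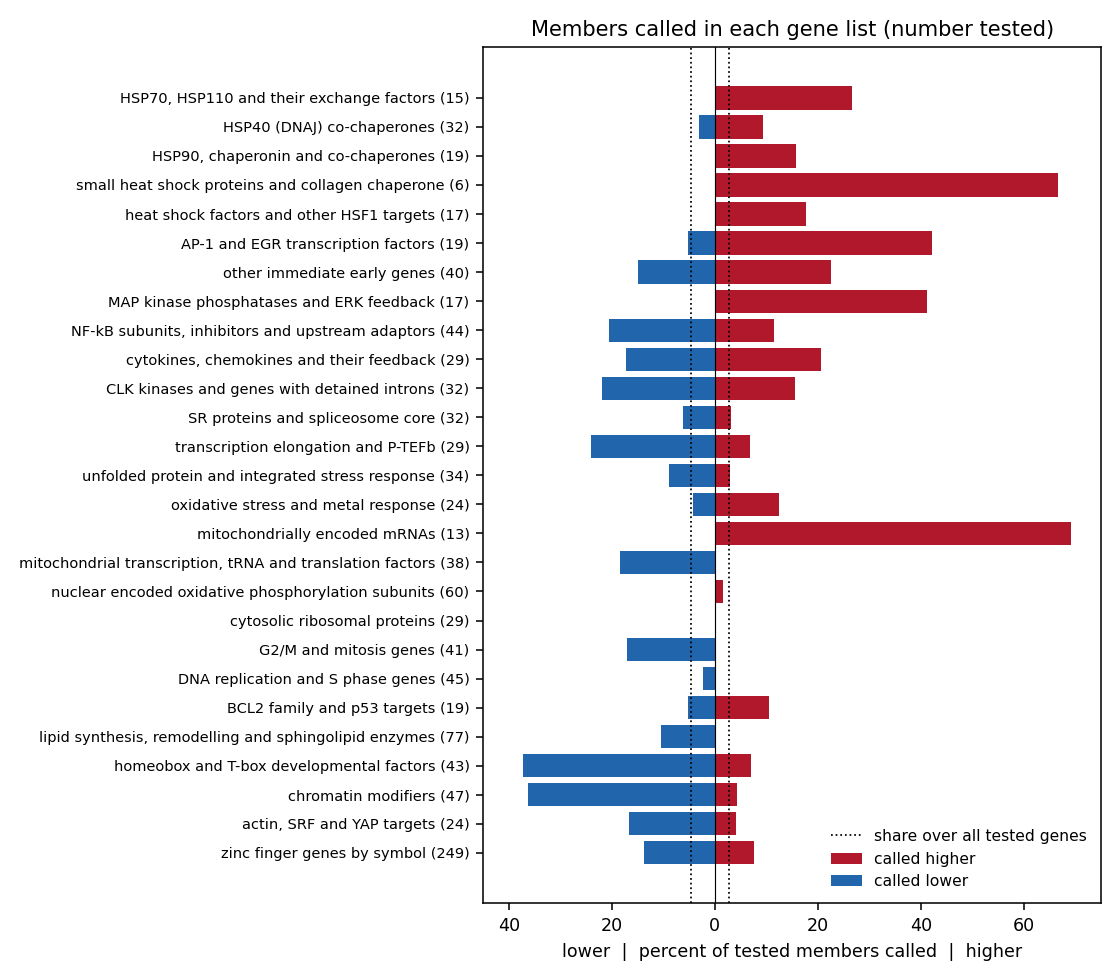
For each gene list, bars to the right give the percent of tested members called higher at 42.5 °C for 1 h and bars to the left the percent called lower, and the number tested is in parentheses. The dotted lines mark 2.83% and 4.68%, the shares over all tested genes, and the longest bar to the right is that of the mitochondrially encoded mRNAs.

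Of 47 tested chromatin modifiers 17 were called lower (36.2%) and 2 higher (4.26%), against 4.68% and 2.83% of all tested genes. Their median log2 fold change was -0.30. With library totals alone 0 were called higher in edgeR's test. Bahcc1, a reader of histone H3 methylation, was at 171, 179 and 173 CPM at 37 °C and at 87.6, 73.2, 83.0 and 70.9 CPM at 42.5 °C (2.23-fold lower, adjusted p = 2.68e-09). Asxl1, a partner of the deubiquitinase BAP1, fell from 255, 273 and 270 CPM to 151, 142, 156 and 126 CPM (1.86-fold lower, adjusted p = 1.99e-08). The histone methyltransferases Kmt5c (2.43-fold lower), Setd1b (2.34-fold lower), Kmt2b (1.97-fold lower), Ezh1 (1.85-fold lower) and Suv39h1 (1.74-fold lower) fell too. In 37 °C replicate D, Bahcc1 was at 78.6 CPM and Setd1b at 3.65 CPM, inside the range of the heated libraries, and with all 4 controls Setd1b lost its call (log2 -0.98) and 12 genes of this list were called lower.

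Of 43 tested developmental transcription factors 16 were called lower (37.2%) and 3 higher (6.98%), with a median of -0.34. Over all tested genes these shares were 4.68% and 2.83%. Most of these factors are expressed at a low level in these cells. Among all tested genes below 3 CPM 12.7% were called lower, and among those between 3 and 10 CPM 11%. HOXD4, which is listed by identifier and named through 1 fold change, was at 2.18, 2.19 and 2.24 CPM at 37 °C and at 0.452, 0.691, 0.582 and 0.237 CPM at 42.5 °C (4.57-fold lower, adjusted p = 2.7e-05). Hoxb3 was 2.97-fold lower, Hoxa3 2.01-fold lower, Hoxc6 1.93-fold lower, Sox4 2.13-fold lower, Tbx2 1.98-fold lower (adjusted p = 5.08e-07), and Irx3 1.89-fold lower (adjusted p = 4.08e-06). Tbx18 went the other way, from 5.05, 5.33 and 5.61 CPM to 19.1, 26.0, 21.7 and 37.3 CPM (4.91-fold, adjusted p = 5.81e-07), and Dlx2 rose 2.36-fold. When genes needed 10 counts in each library, 11 falls were called.

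Symbols of zinc finger proteins (Zfp, Znf, Zscan, Zkscan or Zbtb with a number) were carried by 249 tested genes. Of these, 34 were called lower (13.7%) and 19 higher (7.63%), with a median of -0.05. Over all tested genes 4.68% were called lower and 2.83% higher. These shares depended on level, at 12.7% lower and 10.7% higher for all tested genes below 3 CPM. Between 3 and 10 CPM they were 11% and 4.83%. Zfp551 (log2 -1.70) and Zfp324 (-1.61) fell most, and Zkscan14 (1.67) and Zfp84 (1.27) rose most. The balance of this list depended on the controls and the scaling, with 22 called lower and 23 higher with all 4 controls, and 43 lower and 13 higher with library totals alone.

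All 13 mRNAs encoded by the mitochondrial genome were higher at 42.5 °C with an adjusted p under 0.05, and 9 of them passed the fold threshold. That is 69.2% called higher, against 2.83% of all tested genes. These mRNAs encode subunits of the respiratory chain and ATP synthase and are made by an RNA polymerase of their own, POLRMT. COX1, a subunit of cytochrome c oxidase, was at 9816, 6635 and 6561 CPM at 37 °C and at 11510, 11250, 12150 and 11990 CPM at 42.5 °C (1.52-fold, adjusted p = 0.000196). ATP8 rose 1.97-fold (adjusted p = 1.56e-05), CYTB 1.72-fold (adjusted p = 8.33e-07), ATP6 1.71-fold and ND5 1.66-fold. Replicate A was the highest of the 3 controls for each of these mRNAs, and 37 °C replicate D, which was left out, had 10690 CPM of COX1. The count of calls rested on the controls, with 5 of 13 called without 37 °C replicate B, 12 without replicate A, 7 without replicate C, and 4 with all 4 controls, where COX1 (log2 0.48) and ATP6 (0.56) lost their calls.

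The mitochondrial genes took 3.06%, 2.23% and 2.31% of all counts in 37 °C replicates A, B and C and 3.71%, 3.8%, 3.72% and 3.55% in 42.5 °C replicates A to D (two-sided exact permutation p = 0.0571, n = 3 against n = 4). The groups did not overlap, but 37 °C replicate D had 3.31% and the 40 °C libraries were between 2.39% and 3.54%. TMM without these genes again called 9 of the mRNAs, and library totals alone called 6.

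**Figure D4:**
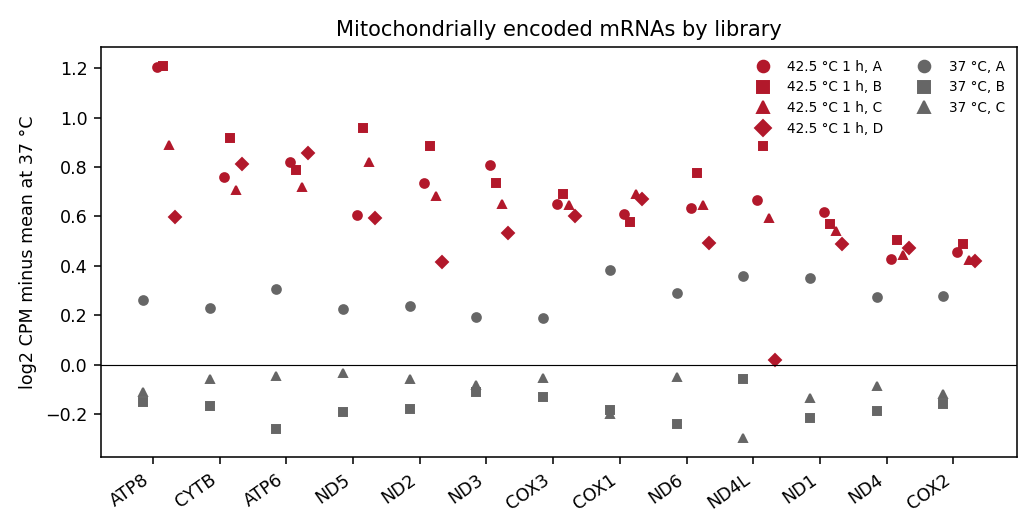
Log2 CPM of each mitochondrially encoded mRNA minus its mean over 37 °C replicates A, B and C, with 37 °C libraries in gray and 42.5 °C libraries in red. The 37 °C replicate A is the highest control for every gene, and the heated libraries lie above the controls for all genes but ND4L, whose replicate D lies among them.

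Nuclear genes of mitochondria gave other counts. Of 60 tested nuclear subunits of oxidative phosphorylation 1 was called higher (1.67%) and 0 lower, with a median of 0.11. Of 38 genes for mitochondrial transcription, tRNA charging and translation 0 were called higher and 7 lower (18.4%), with a median of -0.15. Over all tested genes 2.83% were called higher and 4.68% lower. Polrmt was at 106, 107 and 100.2 CPM at 37 °C and at 73.0, 67.5, 69.3 and 61.3 CPM at 42.5 °C (1.55-fold lower, adjusted p = 5.47e-07). Pars2, a mitochondrial prolyl-tRNA synthetase, was 2.46-fold lower (adjusted p = 5.62e-07), and Top1mt, the mitochondrial topoisomerase, 1.5-fold lower. Tfam, which packs mitochondrial DNA, was not called (log2 0.16, adjusted p = 0.0222). Polrmt lost its call with all 4 controls (log2 -0.57) and without 42.5 °C replicate D (-0.58).

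The unfolded protein response of the endoplasmic reticulum (ER) and the integrated stress response shared 1 list. Of its 34 genes 1 was called higher (2.94%) and 3 lower (8.82%), against 2.83% and 4.68% of all tested genes. By adjusted p alone 11 were higher and 5 lower. Hspa5, the ER chaperone BiP, was at 2059, 2019 and 2156 CPM against 2335, 2558, 2513 and 2834 CPM (1.23-fold, adjusted p = 0.000433), below the fold threshold. Atf4 (log2 0.08, adjusted p = 0.449), Ddit3 (0.44, adjusted p = 0.12) and Xbp1 (-0.01) were not called either. Chac1, a glutathione-degrading enzyme, was at 8.91, 8.97 and 9.92 CPM at 37 °C and at 23.9, 41.6, 26.7 and 58.2 CPM at 42.5 °C, a 4.08-fold rise (adjusted p = 1.56e-05). Trib3, a target of ATF4 and CHOP, was 1.79-fold lower (adjusted p = 9.33e-05), as were Syvn1 (1.73-fold lower), an ubiquitin ligase of ER-associated degradation, and Wfs1 (1.71-fold lower).

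Of the 24 genes of oxidative and metal stress 3 were called higher (12.5%) and 1 lower (4.17%), against 2.83% and 4.68% of all tested genes. Slc30a1, a zinc exporter, rose 2.62-fold (adjusted p = 5.64e-06), Srxn1, sulfiredoxin, 1.88-fold and Nfe2l3 6.13-fold (adjusted p = 3.97e-05) from at most 0.365 CPM. Slc40a1, the iron exporter ferroportin, was 1.60-fold lower.

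The cell cycle lists differed in their share of calls. Of 41 genes of G2 and mitosis 7 were called lower (17.1%, against 4.68% of all tested genes). None was called higher (against 2.83%), and the median was -0.05. Ccnf, which encodes cyclin F, was at 86.3, 85.7 and 86.5 CPM at 37 °C and at 41.4, 36.2, 31.4 and 34 CPM at 42.5 °C (2.42-fold lower, adjusted p = 3e-09). Fam83d, a spindle protein, was 2.48-fold lower (adjusted p = 4.57e-07) and Gtse1 1.57-fold lower. CCNB1 (log2 -0.05, adjusted p = 0.255) and Cdc20 (-0.05) were not called. Of 45 genes of DNA replication 1 was called lower, Ccne2, which encodes cyclin E2 (1.58-fold lower, adjusted p = 7.61e-07), and 0 higher. That share of 2.22% lower was below the 4.68% of all tested genes. In a bulk culture, a smaller share of cells in a phase and less mRNA per cell cannot be told apart.

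In the BCL2 and p53 list 2 of 19 were called higher and 1 lower. Mcl1, a short-lived survival factor, rose 1.95-fold (adjusted p = 5.37e-07), Bcl2l11, which encodes the pro-apoptotic BIM, 1.53-fold (adjusted p = 0.000351), and Bbc3, which encodes PUMA, was 2.02-fold lower (adjusted p = 0.00088). The call of Bcl2l11 was lost with library totals alone (log2 0.54) and without 42.5 °C replicate C (0.57). The p53 target Cdkn1a was at a log2 fold change of -0.11 and was not called.

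Of 77 tested lipid enzymes 8 were called lower (10.4%, against 4.68% of all tested genes) and 0 higher, with a median of -0.08. Plpp7 was 3.27-fold lower (adjusted p = 9.01e-07), Cpt1c 2.96-fold lower (adjusted p = 2.77e-06), the ganglioside sialidase Neu3 2.37-fold lower and Lpcat1, a lysophosphatidylcholine acyltransferase, 1.60-fold lower (adjusted p = 0.00112). Ugcg, the glucosylceramide synthase, had a log2 fold change of -0.43 (adjusted p = 7.54e-05) and Hmgcs1 one of -0.17 (adjusted p = 0.0889), neither of which reached the fold threshold. The enzymes that begin sphingolipid synthesis, SPTLC1 (log2 -0.04) and SPTLC2 (0.17), and the sphingomyelin synthases Sgms1 (0.07) and Sgms2 (0.38) were not called.

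Of 24 genes of actin, SRF and YAP signaling 1 was called higher (4.17%) and 4 lower (16.7%), against 2.83% and 4.68% of all tested genes. Filip1l was at 21.9, 21.7 and 26.0 CPM at 37 °C and at 52.8, 91.3, 62.3 and 121 CPM at 42.5 °C (3.55-fold, adjusted p = 9.56e-06). Actb, beta-actin, had a log2 fold change of -0.25 (adjusted p = 0.000574) and Ankrd1, a YAP target, of -0.10 (adjusted p = 0.449). Of the 29 cytosolic ribosomal protein genes found by name, out of 78 listed, 0 were called in edgeR's test with the fold threshold, 20 were higher and 1 lower by adjusted p alone, and the median was 0.17.

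Several of the largest changes lay outside these lists, in genes that were almost silent at 37 °C. Lrit3 had 2 counts in each of the 3 controls and 40, 41, 56 and 66 counts in the heated libraries (28.2-fold, adjusted p = 4.87e-08). Kdf1 had 1 count over the controls and 79 over the heated libraries, a ratio of 70.7 with a 95% counting interval of 12.3 to 2830. Akap5, an anchoring protein for protein kinase A, had 2 and 124 counts (ratio 55.5, interval 15 to 463), Klb, the co-receptor beta-klotho, 3 and 102 (30.4, interval 10.1 to 150), and Nlgn3 3 and 42 (12.5, interval 4 to 63.2). Aldh8a1 had 1 and 73 counts. These intervals cover counting error only. With so few control counts, such genes passed the low-count filter through their heated libraries alone. A gene this low at 37 °C was thus tested only if it rose, so its adjusted p is no independent support. In 37 °C replicate D, Klb had 5 counts, Nlgn3 4 and Lrit3 4, while Kdf1, Akap5 and Aldh8a1 had 0. ENSCGRG00001020860 had 0 counts in the 3 controls and 58, 64, 22 and 7 counts in the heated libraries, at least 15.5-fold higher than a floor of 3 counts per library, but it had 14 counts in 37 °C replicate D.

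Of the large falls, Osbpl7, a lipid-binding protein, was at 18.8, 18.8 and 17.8 CPM at 37 °C and at 5.33, 4.84, 4.27 and 3 CPM at 42.5 °C (4.30-fold lower, adjusted p = 1.85e-08). Hps6, a subunit of the BLOC-2 complex, was 3.85-fold lower (adjusted p = 5.81e-07), Ddx28, a mitochondrial RNA helicase, 3.54-fold lower, and Pif1, a DNA helicase, 3.41-fold lower (adjusted p = 4.58e-08). The receptor kinase Ephb3 was 3.41-fold lower (adjusted p = 8.98e-06). BCLAF1, which was paired with an identifier through 2 fold changes, was 6.11-fold lower (adjusted p = 9.83e-05) from no more than 2.04 CPM, and stood at 0.0890 CPM in 37 °C replicate D. RIN2, named through 3 fold changes, had 35, 87 and 39 counts at 37 °C and 23, 0, 0 and 0 counts at 42.5 °C, so that a single heated library held all of its heated reads. DESeq2 did not call it.

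Genes without a count in 37 °C replicates A, B and C were detected more often after moderate heat. There were 7661 such genes. In 42.5 °C replicates A, B, C and D, 402, 367, 395 and 439 of them had at least 1 count. In 37 °C replicate D the number was 222, in the 40 °C libraries it was between 207 and 293, and all of these lay below every heated library at 42.5 °C. Since the genes were chosen by the 3 controls, no test was made against those. Replicates B and C at 42.5 °C had fewer total counts than any other library of the series, and replicate A fewer than 37 °C replicate D. The reads on these genes numbered 598 to 740 per library at 42.5 °C, 268 in 37 °C replicate D and 239 to 546 at 40 °C. 10 of these genes had at least 3 counts in each heated library at 42.5 °C. No gene did so in all libraries of either 40 °C group. They include Pou5f2, Myh6, a cardiac myosin, Meox1, Acan, which encodes aggrecan, and Naalad2, which are named here after their values were seen. Myh6 had 7, 6, 3 and 7 counts and Acan 6, 3, 3 and 8.

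A similar difference was seen over 4179 low genes, which is not a separate observation because the sets share genes. These 4179 genes had a mean under 5 counts across all 16 libraries. Relative to the library total they summed to 298, 308, 308 and 341 CPM in the heated libraries and 237 to 250 in the 3 controls, with 231 in 37 °C replicate D and 219 to 245 at 40 °C. Genes with at least 1 count numbered 12419 ± 109 (SD, n = 4) after heating. The controls had 12235 ± 94.5 (SD, n = 3), with no overlap (two-sided exact permutation p = 0.0571 for n = 4 against n = 3).

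**Figure D5:**
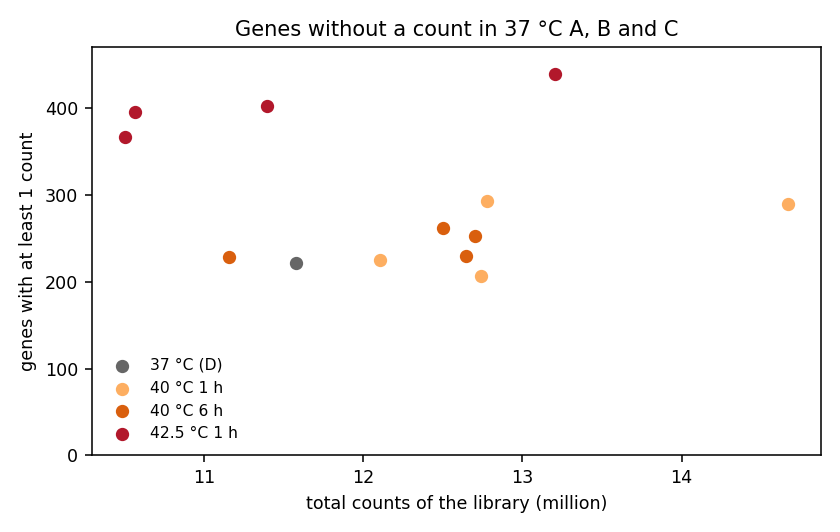
Genes without a count in 37 °C replicates A, B and C that had at least 1 count in each of the other libraries, against the library's total counts on the x axis. The 4 red points at 42.5 °C lie between 367 and 439 genes, above the other 9 libraries at 207 to 293.

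The response was also set against 40 °C for the same 1 h, which shares the heated libraries with the comparison above and is therefore not a second sample of it. Of 10441 genes tested 550 were called (5.27%), with 183 higher and 367 lower at 42.5 °C. HSPA1A/HSPA1B was higher at 42.5 °C than at 40 °C by a log2 difference of 5.73 (adjusted p = 1.02e-09), Zfand2a by 2.58 (adjusted p = 4.85e-06), Dnajb1 by 2.16 and Hspb1 by 1.86. Fos was higher by 3.8 (adjusted p = 2.95e-10), Egr1 by 2.56 (adjusted p = 1.52e-10) and Areg by 4.42. Cxcl1 was lower by a log2 difference of -2.54 (adjusted p = 3.69e-07) and NFKBIA by -1.48.

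Other genes that changed at 42.5 °C were not called between the temperatures. Jun, at a log2 fold change of 1.16 against 37 °C, differed from 40 °C by 0.12 (adjusted p = 0.533). Clk1 differed by 0.39 (adjusted p = 0.0312), Dedd2 by 0.06 (adjusted p = 0.789) and Srsf5 by -0.07 (adjusted p = 0.512), none of which reached both thresholds. Rsrp1 was lower at 42.5 °C than at 40 °C, by -0.34 (adjusted p = 0.000854), though higher than at 37 °C. Hspa5 differed from 40 °C for 1 h by 0.10 (adjusted p = 0.195). Of the chaperone lists 11 of 89 genes were called higher against 40 °C and 1 lower, and of the mitochondrially encoded mRNAs 5 of 13 were called higher. Of all 10441 genes tested in that comparison 183 were called higher and 367 lower.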

How the data were processed

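RNA from CHO cells was isolated with a column kit and sequenced on an Illumina NextSeq after TruSeq preparation, per the labels. Trimming, mapping to the CHOK1GS_HDv1 genome and counting per gene were done by the authors in CLC Genomics Workbench. The deposited values are raw counts, whole numbers without normalization. Strandedness, annotation release and the handling of reads with several mapping places are not given in the sources used here, so genes with near-identical or overlapping copies are uncertain. Of 20824 genes, 4423 are listed by identifier only. 6 of these were named by matching the study's fold changes of significant genes, and other identifiers were left unnamed. Naming thus favored changed genes. HSPA1A/HSPA1B, HSPA8, NFKBIA and HOXD4 entered their lists this way, which raises the called share of those lists.

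Counts were tested with edgeR 4.0.16 in R 4.3.3 (filterByExpr, TMM, quasi-likelihood) on 42.5 °C replicates A to D and 37 °C replicates A to C, and the same test was used against 40 °C 1 h. Adjusted p values come from this test. The filter keeps a gene that is high enough in either group, so low genes could enter through their higher group alone. The SE is the log2 fold change divided by the root of F. CPM were scaled by TMM over all 16 libraries. Shares of counts were compared by exact permutation in scipy 1.17.1. The biological coefficient of variation was 0.0489. The fit was tested on simulated data. P values of edgeR's test weigh the difference between groups against the spread between these libraries only.

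The comparison and the 27 gene lists were chosen with earlier results of these data known. No set test was therefore made, and each list is given by its counts and median. The permutation p of the chaperone and mitochondrial shares of counts concerns lists chosen this way, so it is no independent support. Named genes are the 15 largest rises and 15 largest falls whose libraries did not overlap, list anchors and the 4 largest called members of each list, the 10 most abundant called genes, the 10 with the largest difference in CPM, the 5 most variable among heated libraries, and list members given by value. Alternatives were DESeq2 1.42.0 and its size factors, library totals alone, TMM without mitochondrial genes, no filter, 10 counts in every library, 1 fit over all groups, all 4 controls, the replicate block, adjusted p alone, glmTreat, and each library left out. Promoters were not analysed here, and 2 list members are not reported by name here.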

Additional observations from a re-analysis of the deposited data

Results flagged for a closer look

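Among the 141 called genes named by rule, and the 4 shares per library, 2 genes had a heated library whose gap to its nearest neighbour, divided by the range of the 4, was above Dixon's 95% critical value for 4 samples. Chance flags about 1 in 20 groups of this size, so 2 flags are no more than chance alone would give. RIN2 was also named for its spread among heated libraries, so its flag is not independent of that choice. RIN2 was at 2.08 CPM in 42.5 °C replicate A and at 0 CPM in the other 3. Snrnp35 was at 3.30 CPM in 42.5 °C replicate C and between 3.94 and 4.06 CPM in the others, below all controls in each.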

How the results depend on the processing

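Calls were made from 7 libraries, so small differences and genes of few counts are poorly resolved, and at 10504192 to 13997367 counts 3 counts correspond to 0.214 to 0.286 CPM of the library total. Against 37 °C, a test against the fold threshold itself (glmTreat) called 262 genes (114 higher, 148 lower) instead of 786, and adjusted p alone called 4510 (2180 higher, 2330 lower). Against 40 °C for 1 h these counts were 171 and 3767 instead of 550. DESeq2 called 712 genes against 37 °C, all 4 controls 639 (585 of them also in the 786), 10 counts in every library 682 and no filter 942. Leaving out a library gave 701 to 854 calls (251 to 317 higher, 450 to 544 lower) and 510 to 618 against 40 °C. Over the gene lists it gave 221 to 244 called members instead of 237. The difference between groups was then 1.01 to 1.43 percentage points for the mitochondrial share, 0.818 to 1.06 for the chaperone share, 0.581 to 0.754 for the 10 genes with most counts and 133 to 226 for genes detected. Of 141 named genes that were called, 94 were called under every alternative, 28 lost the call under glmTreat alone and 19 under another, of which 11 with all 4 controls and 13 without a single library. Genes that were not called changed sign. Srsf1 was at -0.07 with library totals alone and between -0.01 and 0.04 without a library, and Polr2a at 0.04 with all 4 controls. Atf4 ranged from -0.0019 to 0.2 and Ankrd1 from -0.16 to 0.02 without a library. Replicate letters were not taken as pairs, since same-letter libraries correlated in their deviations with r between 0.028 and 0.128 over 3 pairs against 37 °C. With the replicate block, 717 genes were called against 37 °C and 546 against 40 °C, 4 named genes lost their call, and Ankrd1 was at 0.02. The cause of these changes was not tested.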

Other observations

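An abundant gene listed by identifier only, ENSCGRG00001014239, was at 1150, 1216 and 1230 CPM at 37 °C and at 2706, 3652, 2580 and 4392 CPM at 42.5 °C (2.77-fold, adjusted p = 6.42e-07). Its heated libraries were highest in replicate D and lowest in replicate C.

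Genes on either side of the largest rises were looked up by symbol in the RefSeq annotation of another assembly, for order only. Of the 15 largest rises 7 had a tested neighbour, and 1 of these had a neighbour called higher, Aldh8a1, which lies beside Sgk1 (log2 1.56). Over all tested genes with a tested neighbour the share was 2.77%, and over those called higher it was 5.15%.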
